A study of Drosophila melanogaster with 2 samples.

Results

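The 48 genes described here encode subunits of the proteasome in Drosophila melanogaster, and the values show where their promoters stand in a map of the transcription factor Jim. Members were chosen by name from the protein-coding genes of the dm6 annotation: a symbol that starts with Prosalpha or Prosbeta, or with Rpn or Rpt and a digit. The rule found 48 of 13945 protein-coding genes. All 48 carry a RefSeq description that names the proteasome or its regulatory particle. Chromatin immunoprecipitation with sequencing (ChIP-seq) was done on whole larvae of the third instar at the wandering stage, males and females pooled, of a transgenic line that stably expresses Jim with GFP fused to its C terminus. An antibody against GFP recovered the chromatin. The samples form 1 group of 2 biological replicates, numbered 1 and 3, and both carry the transgene. The labels give no promoter or cell type for the transgene, and a whole larva mixes all larval tissues.

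The proteasome degrades proteins that have been tagged with ubiquitin. Its core particle is a barrel of stacked rings: the outer alpha rings gate the entrance, and the inner beta rings hold the proteolytic sites. The regulatory particle caps the barrel, with a base whose Rpt subunits are ATPases that unfold substrates and a lid of Rpn subunits that helps to remove ubiquitin. In flies several subunits have a duplicated copy, and some of these copies are used in the male germ line. Jim is a C2H2 zinc finger protein. The labels name no purpose beyond mapping it, so the question put to the lists was which subunit genes have a region of recovered Jim at a transcript start, and at what rank.

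By symbol, 32 members are constitutive subunit genes and 16 are duplicated or testis-type copies, whose symbol has R or T after the digit. RefSeq calls 4 of the copies testis-specific and 12 related. The constitutive genes comprise 7 of the alpha ring, 7 of the beta ring, 10 of the base and 8 of the lid. The copies comprise 5, 6, 4 and 1 in the same order of parts. A gene was called bound when the summit of a region lay within 500 bp of one of its transcription start sites (TSSs).

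The lists rank regions by the deposited signal, which is on the scale of the authors' peak caller and is read only within a list. The strictest is the IDR list, named for the irreproducible discovery rate, a measure of agreement between replicates. Its 1476 regions are the 1476 strongest of the 30000 pooled regions, and its signal goes down to 65.3. The pooled list and the lists of replicates 1 and 3 reach down to signals of 20.6, 10.9 and 12.4. The number of reads behind each list is unknown. The X chromosome held 15.0% of the regions in replicate 1 and 10.9% in replicate 3. Shares are given with exact Clopper-Pearson intervals (95%), which cover counting error only. No test was run, because there is 1 group and the genes were chosen with earlier results of these data known.

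Few subunit genes had a strong Jim region at a start. In the IDR list 2 of the 48 were bound, Rpt3 and Prosbeta1, a share of 4.17% (interval 0.509% to 14.3%), against 6.96% of all protein-coding genes. Both are constitutive genes, so that 2 of 32 constitutive genes (6.25%, interval 0.766% to 20.8%) and 0 of 16 copies were bound. A count of 0 among 16 allows a share of up to 18.8% by the limit of 3 genes, and the exact interval reaches 20.6%. The interval for the members holds the share of all genes. The stronger regions of the IDR list, taken to 0.5 of its length, reached 0 subunit genes, against 3.43% of all genes.

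Rpt3 (FBgn0028686) encodes an ATPase of the base and lies on the plus strand of X. Its region spanned chrX:11124559-11124818 on dm6 and ranked 1128 in the pooled list with a signal of 73.3. At that summit replicate 1 had a region of rank 1083 with a signal of 39.0, and replicate 3 had no region. The summit was 412 bp upstream of the nearest Rpt3 start, the farthest inside the 500 bp limit of the bound members. It lay 37 bp downstream of a start of CG11122, a gene on the opposite strand, in the 5′ untranslated region of that gene. The annotated starts of the pair are 375 bp apart.

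The stretch of the Rpt3 region that lies outside all annotated exons is shown because it is the shared upstream sequence of Rpt3 and CG11122. It covers chrX:11124727-11124818, plus strand, from the RefSeq Release 6 sequence, and does not include the summit. Capitals mark TATCGATA, the DNA replication-related element (DRE), a site common in promoters of broadly used fly genes.

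Rpt3: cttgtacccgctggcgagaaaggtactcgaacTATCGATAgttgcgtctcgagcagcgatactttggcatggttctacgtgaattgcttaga

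In this stretch the element ended 335 bp upstream of the Rpt3 start and 33 bp upstream of the CG11122 start. It was outside the window of 50 bp to each side of the summit and inside that of 100 bp.

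Prosbeta1 (FBgn0010590) encodes a catalytic subunit of the beta ring and lies on the minus strand of 2R. Its region spanned chr2R:16014746-16015005 and ranked 1347 in the pooled list, with a signal of 68.4. Replicate 1 had a region of rank 661 at that summit, with a signal of 46.9, and replicate 3 had one of rank 7644, with a signal of 19.4. The region was thus among the stronger ones of replicate 1 and far down the list of replicate 3. The summit was intergenic, 89 bp upstream of Prosbeta1 and 32 bp upstream of Rrp42, a subunit gene of the RNA exosome. The 2 genes point away from each other, with 121 bp between their starts. With a limit of 250 bp in place of 500 bp, Prosbeta1 was the 1 member still bound, against 5.72% of all genes.

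For both bound subunit genes another gene had the nearer start. Counting a summit only for its nearest gene left 0 of 48 members, against 5.40% of all genes. Of the 970 protein-coding genes bound in the IDR list, 217 (22.4%) were likewise never the nearest gene to a summit. The promoters of the 2 genes were therefore called through summits that lay between or beyond paired starts, and the lists cannot tell which start of a pair a region belongs to.

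The 46 unbound members lay between 1124 bp and 139795 bp from the nearest IDR summit, with a median of 25383 bp. For 37 of them the distance was over 10000 bp, and for 0 of them between 500 and 1000 bp. The distances of other unbound genes were not measured, so these values do not show whether the members lie farther away. Just outside the limit stood Prosbeta6, a beta ring gene, at 1124 bp, against 412 bp for Rpt3 just inside it. No member had an IDR summit inside its gene body, and 9 had a pooled summit there. These counts were not made over all genes, so they cannot be read as a trait of the members.

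**Figure D1:**
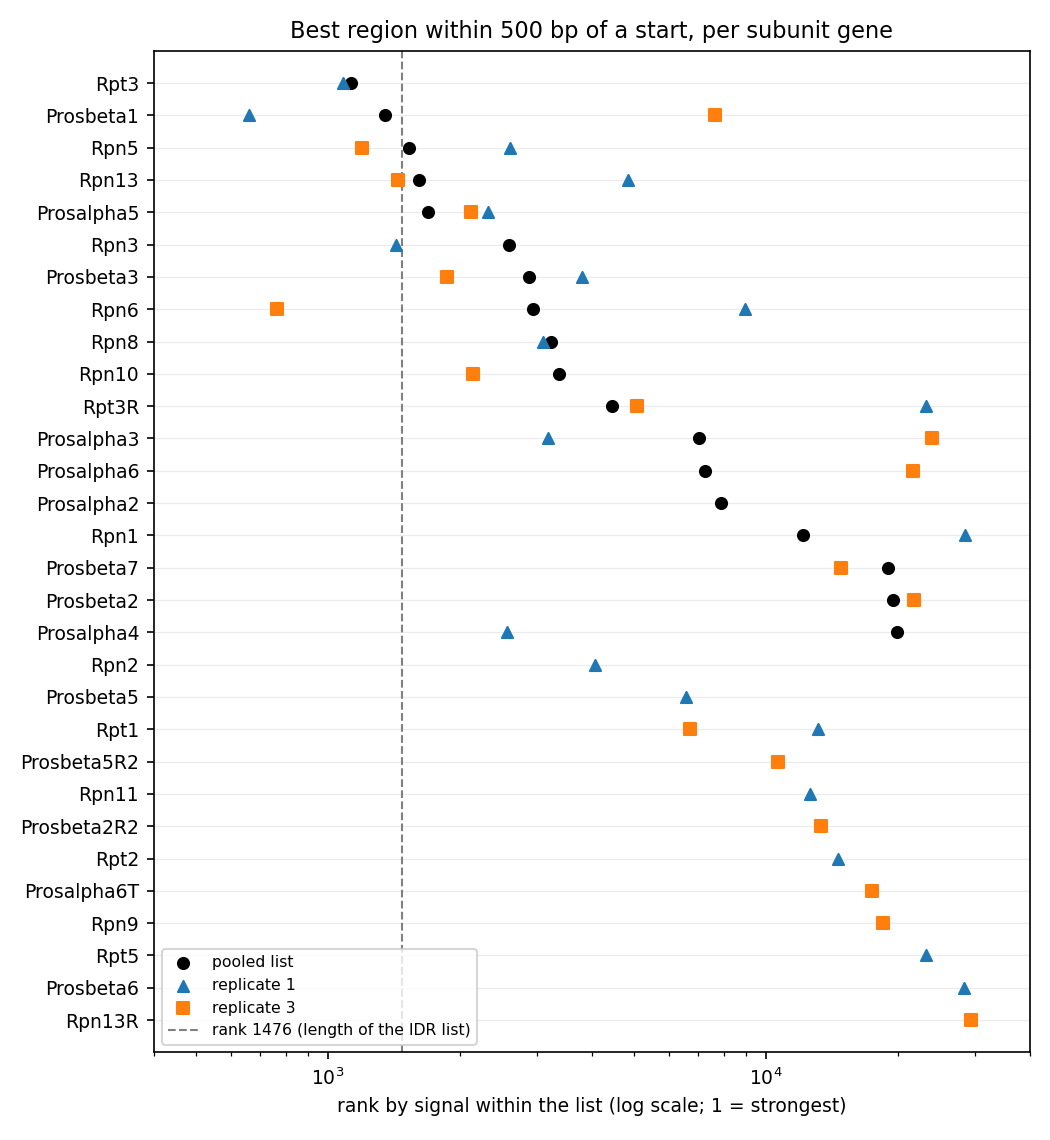
Rank by signal (log scale, 1 is the strongest) of the best region within 500 bp of a start, for the 30 subunit genes with a region in any list. Circles are the pooled list, triangles replicate 1 and squares replicate 3, and the dashed line is rank 1476: 2 pooled circles lie left of it, and no gene has both replicate symbols left of it.

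Below the IDR list further members followed. An extended list was made of the strongest pooled regions, 2 times as many as the IDR list holds. Its ranks from 1477 on held the best region of 6 members, 12.5% of the 48 (interval 4.73% to 25.2%), against 5.67% of all genes. Over the extended list as a whole 8 of 48 were bound (16.7%, interval 7.48% to 30.2%), against 12.6% of all genes. All 8 were constitutive genes, 25.0% of the 32 (interval 11.5% to 43.4%). The intervals for all members and for the constitutive genes reach down to 7.48% and 11.5%, so both hold the share of all genes.

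Rpn5, a scaffold subunit of the lid, came first after the IDR list. Its region, chr3R:5788989-5789248, ranked 1527 with a signal of 64.3, against 65.3 at the end of the IDR list. Replicate 1 had rank 2603 and a signal of 27.1 at that summit, and replicate 3 had rank 1194 and a signal of 38.1. The summit lay 374 bp upstream of Rpn5 and 45 bp upstream of a start of Hat1, a histone acetyltransferase gene, in a Hat1 intron. A weaker pooled summit lay 40 bp from the Rpn5 start. Prosbeta3, an inner ring subunit without proteolytic activity, had a region at chr3R:9006224-9006483 with rank 2874 and a signal of 48.0. Replicate 3 covered that summit at rank 1873 with a signal of 31.4. Replicate 1 did not cover it, and its own region there ranked 3805, with a signal of 23.1 and a summit 66 bp downstream of the start. The pooled summit was 128 bp upstream of Prosbeta3 and 102 bp upstream of Iru, which encodes a ubiquitin ligase.

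The stretches of these regions outside all annotated exons are shown, on the strand of the subunit gene, as sequences under pooled regions that followed the IDR list. Rpt3R is added as the copy with a pooled region. They cover chr3R:5789075-5789248 on the plus strand for Rpn5, chr3R:9006227-9006455 on the minus strand for Prosbeta3 and chr3R:9756312-9756490 on the minus strand for Rpt3R, and all 3 include the summit. Capitals mark the 9 preset motifs on either strand. In Rpn5 this is TATAAA. In Prosbeta3 it is a run in which TGACNNNGC, the type of site bound by the stress factor CncC, occurs 2 times and overlaps GGTCACAC, a fly core promoter motif, and then TTTATA, which is TATAAA on the other strand. In Rpt3R it is CAGCTG, a site of basic helix-loop-helix factors, then an E-box with the letters CACGTG, and again TTTATA.

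Rpn5: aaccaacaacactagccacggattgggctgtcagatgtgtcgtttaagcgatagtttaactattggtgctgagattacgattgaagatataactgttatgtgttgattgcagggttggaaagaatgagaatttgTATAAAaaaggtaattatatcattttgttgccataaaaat
Prosbeta3: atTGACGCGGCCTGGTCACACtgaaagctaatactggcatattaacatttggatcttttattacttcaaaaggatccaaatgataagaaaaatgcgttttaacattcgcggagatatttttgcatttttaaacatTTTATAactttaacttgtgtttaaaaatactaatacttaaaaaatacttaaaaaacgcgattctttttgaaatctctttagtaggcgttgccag
Rpt3R: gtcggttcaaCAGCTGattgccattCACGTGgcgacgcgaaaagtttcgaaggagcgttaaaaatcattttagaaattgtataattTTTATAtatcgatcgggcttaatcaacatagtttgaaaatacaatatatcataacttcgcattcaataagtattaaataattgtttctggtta

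These stretches had a GC content of 34.5% for Rpn5, 30.1% for Prosbeta3 and 31.8% for Rpt3R, against 48.9% for the Rpt3 stretch.

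Rpn3 and Rpn6, scaffold subunits of the lid, differed in which replicate ranked them high. Rpn3 had a pooled region at chr2L:19051857-19052116 with rank 2583 and a signal of 50.2. Replicate 1 had rank 1426 there with a signal of 35.1, and replicate 3 had no region. The summit was in the 5′ untranslated region of Rpn3, 58 bp downstream of its start. Rpn6 had a pooled region at chr2R:14752272-14752531 with rank 2933 and a signal of 47.7. Replicate 3 had rank 766 there with a signal of 45.7, and replicate 1 had rank 8969 with a signal of 16.9. Its summit lay in an intron of Rpn6, 131 bp upstream of the nearest, internal Rpn6 start and 119 bp upstream of ave, a gene of Ras and Raf signalling.

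Rpn13, a ubiquitin receptor of the base, had a region at chr2R:13960621-13960880 with rank 1614 and a signal of 62.9. Replicate 1 had rank 4828 at the summit and replicate 3 had rank 1441. The summit lay 347 bp upstream of Rpn13 and 76 bp downstream of a start of CtsL1, which encodes the lysosomal protease cathepsin L. Prosalpha5, of the outer ring, had a region at chr2R:17412580-17412839 with rank 1694 and a signal of 61.1. The replicates placed it at close ranks, 2323 in replicate 1 and 2126 in replicate 3. The summit was 57 bp upstream of Prosalpha5, and the next gene start, of Vajk4, was 2506 bp away. Of the 8 members in the extended list, Prosalpha5 and Rpn3 were the 2 that had a summit nearer to their own start than to that of any other gene.

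Directly below the extended list stood Rpn8, the lid partner of the deubiquitinase Rpn11, with rank 3228 and a signal of 45.7, and Rpn10, a ubiquitin receptor of the base, with rank 3360 and a signal of 44.9. Replicate 1 covered the Rpn8 summit at rank 3092 and replicate 3 did not. The Rpn10 summit was covered by replicate 3 at rank 2141 and not by replicate 1. Rpn8 shared its region with Slik, a kinase gene, whose start was 22 bp from the summit, and the Rpn8 summit lay in an Rpn8 intron, upstream of the nearest Rpn8 start. The Rpn10 summit lay in the 5′ untranslated region of Rpn10, 21 bp upstream of an internal start, and the next start of another gene was 2385 bp away.

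At any rank of the pooled list 18 of 48 members were bound (37.5%, interval 24.0% to 52.6%), against 42.8% of all genes. The constitutive genes made up 17 of these, 53.1% of the 32 (interval 34.7% to 70.9%). The copies had 1 of 16, Rpt3R (6.25%, interval 0.158% to 30.2%). Rpt3R is the copy of the ATPase gene Rpt3, and its region ranked 4456 with a signal of 40.1. Replicate 1 covered that summit at rank 23192. Replicate 3 did not cover it and had a region of rank 5080 with its summit 70 bp upstream of the Rpt3R start. The parent gene and its copy were thus both reached, Rpt3 from 412 bp upstream and Rpt3R from 68 bp downstream. At both summits another gene had the nearer start, CG11122 at 37 bp for Rpt3 and Alg12 at 49 bp for Rpt3R.

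**Figure D2:**
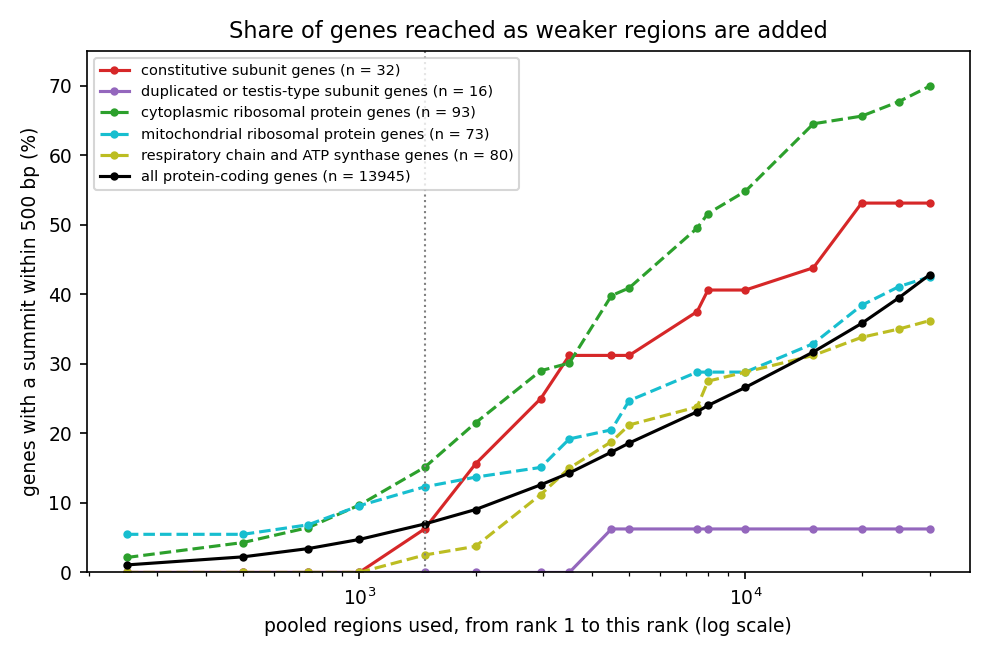
Share of genes (%) with a summit within 500 bp of a start as weaker pooled regions are added, against the rank reached (log scale), for the 32 constitutive and 16 duplicated or testis-type subunit genes, 3 other gene families and all protein-coding genes. The constitutive genes stand at 0% at rank 1000, at 6.25% at rank 1476 (dotted line) and at 31.2% at rank 3500, against 4.74%, 6.96% and 14.3% of all genes.

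The 18 members with a pooled region had a median best rank of 3294.0, with a range of 1128 to 19941, against a median of 6409.5 over the 5974 genes of the genome with one. Medians over genes with a region leave out the 30 members without one. By rank 1000 the pooled list had reached 0 members against 4.74% of all genes, by rank 3500 10 members (20.8%) against 14.3%, and by rank 10000 14 members (29.2%) against 26.6%. The weaker pooled regions belonged to the alpha ring genes Prosalpha2, Prosalpha3, Prosalpha4 and Prosalpha6, the beta ring genes Prosbeta2 and Prosbeta7, and Rpn1, a base scaffold. Their ranks ran from 7044 for Prosalpha3 to 19941 for Prosalpha4.

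**Figure D3:**
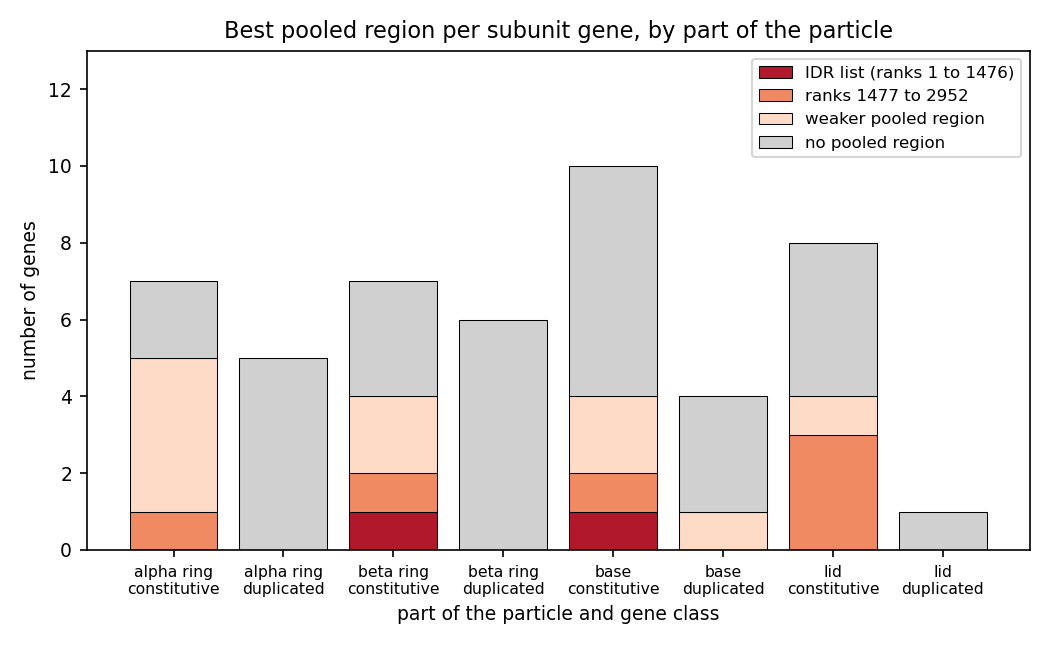
Number of subunit genes (vertical axis) per part of the particle and gene class, split by the rank of the best pooled region within 500 bp of a start. IDR regions fall to 1 constitutive gene of the beta ring and 1 of the base, and 1 of the 16 copies, in the base, has a pooled region.

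By part of the particle, the IDR list reached 0 of 7 constitutive alpha ring genes, 1 of 7 beta ring genes, 1 of 10 base genes and 0 of 8 lid genes, against 6.96% of all genes. The extended list reached 1, 2, 2 and 3 genes in the same order, against 12.6% of all genes, and the whole pooled list 5, 4, 4 and 4, against 42.8%. The 3 lid genes were Rpn3, Rpn5 and Rpn6, and their share of the 8 has an interval of 8.52% to 75.5%, which holds the share of all genes. These are counts in groups of 7 to 10 genes, and the differences between parts were not tested.

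Taken alone, the replicates did not pick the same subunit genes. The 1476 strongest regions of replicate 1 reached 3 members, Prosbeta1, Rpn3 and Rpt3 (6.25%), against 7.15% of all genes. Those of replicate 3 reached 3 others, Rpn5, Rpn6 and Rpn13 (6.25%), against 6.53% of all genes. The members reached in both were 0 of 48, against 3.90% of all genes. A count of 0 among 48 allows up to 6.25% by the limit of 3 genes, and the exact interval reaches 7.40%. Of the 970 genes bound in the IDR list, 521 (53.7%) were reached in both replicates by this rule, and 60 (6.19%) had no region of replicate 3 at any rank, as was the case for Rpt3. With 2 times as many regions of each, 2 members were reached in both, Prosalpha5 and Rpn5 (4.17%), against 7.16% of all genes.

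At any rank, replicate 1 had a region at 20 members (41.7%) against 45.6% of all genes, and replicate 3 at 18 members (37.5%) against 39.2% of all genes. Among the 16 copies, replicate 1 had a region at 1 (6.25%, interval 0.158% to 30.2%) and replicate 3 at 5 (31.2%, interval 11.0% to 58.7%). Both replicates had one at 9 members (18.8%), against 27.3% of all genes. These were Prosalpha3, Prosalpha5, Prosbeta1, Prosbeta3, Rpn5, Rpn6, Rpn13, Rpt1 and Rpt3R. Of the 6 members on X, replicate 1 had a region at 2, Rpt3 and Prosalpha4, and replicate 3 at 1, Rpn13R. The share of all X genes with a region was not taken for either replicate, so these counts show no trait of the members. Replicate 1 had more of its regions on X, and the part of this in the values of Rpt3 was not tested.

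Of the 18 pooled summits, 6 were covered by a region in both replicates, 6 in replicate 1 alone, 4 in replicate 3 alone and 2 in neither. A further 12 members had a region in a replicate list but none in the pooled list. Rpt1, a base ATPase, had one in both replicates, at rank 13136 in replicate 1 and 6718 in replicate 3. Replicate 1 alone had Rpn2, at rank 4063, Prosbeta5, Prosbeta6, Rpn11, Rpt2 and Rpt5, and replicate 3 alone had Rpn9 and the copies Prosalpha6T, Prosbeta2R2, Prosbeta5R2 and Rpn13R. The counts of covered summits and of members without a pooled region were not made over all genes. They do not show whether the members differ from other genes.

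No region of any list lay at 18 members, 7 of the 32 constitutive genes and 11 of the 16 copies. The 18 are 37.5% of the members (interval 24.0% to 52.6%), against 39.8% of all genes, with 21.9% of the constitutive genes (interval 9.28% to 40.0%) and 68.8% of the copies (interval 41.3% to 89.0%). The constitutive ones were Prosalpha1, Prosalpha7, Prosbeta4, Rpn7, Rpn12 and the ATPase genes Rpt4 and Rpt6. The copies were Prosalpha1R, Prosalpha3T, Prosalpha4T1, Prosalpha4T2, Prosbeta2R1, Prosbeta4R1, Prosbeta4R2, Prosbeta5R1, Rpn12R, Rpt4R and Rpt6R. Some list held a region for 5 of 7 constitutive alpha ring genes, 6 of 7 beta ring genes, 8 of 10 base genes and 6 of 8 lid genes.

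**Figure D4:**
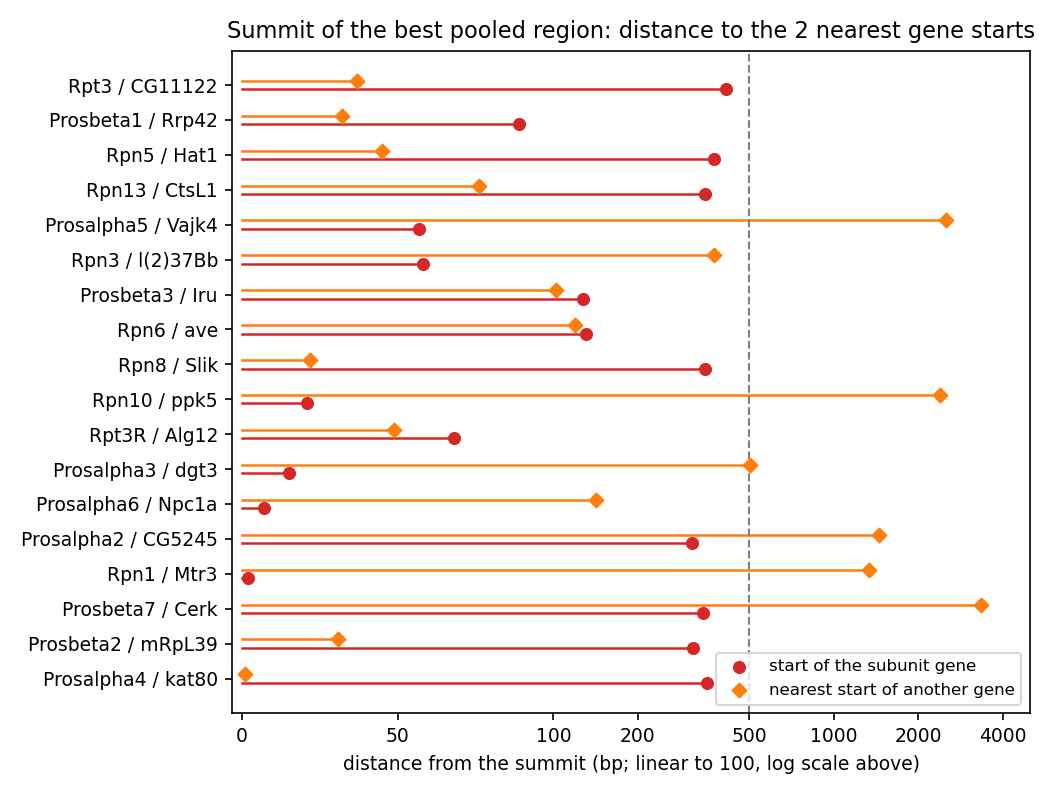
Distance in bp (linear to 100, log scale above) from the summit of the best pooled region to the start of the subunit gene (circles) and to the nearest start of another gene (diamonds), for the 18 subunit genes with a pooled region in order of rank. The diamond lies closer to 0 than the circle in 10 of the 18 pairs, the 4 strongest included.

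Many of these summits stood close to the start of a neighbouring gene. Of the 18 best pooled summits, 12 lay upstream of the whole member gene and 6 inside it, 3 of these (Rpn6, Rpn8 and Rpn10) upstream of an internal start that was the nearest one. By distance, 10 were within 150 bp of the nearest start of the member and 8 at 300 to 500 bp. Another gene had the nearer start for 10 of the 18, and 12 had another protein-coding start within 500 bp. The counts of best summits by place and distance were not made over all genes. Counting every pooled summit, 7 of the 18 members were never the nearest gene, against 14.0% of the 5974 genes with a pooled region. When a summit at any rank was counted only for its nearest gene, 11 of 48 members (22.9%) were reached, against 36.8% of all genes. These included Rpn5, Prosalpha4 and Rpt3R, each through a pooled summit weaker than its best one. The closest pooled summit was 40 bp from the start of Rpn5 and 140 bp from that of Prosalpha4. Prosalpha4, the weakest of the 18, had its best summit 354 bp upstream of its start and 1 bp from a start of kat80, a katanin subunit gene. Prosbeta2, a catalytic subunit gene, had its summit 316 bp upstream and 31 bp from a start of mRpL39, a mitochondrial ribosomal protein gene.

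Head-to-head pairs, in which a protein-coding gene on the other strand starts within 500 bp upstream, were frequent among the constitutive genes. They comprised 18 of 32 (56.2%), and 20 of the 48 members (41.7%), against 26.4% of all protein-coding genes and 2 of the 16 copies. Both members in the IDR list had such a partner, 2 of 20 paired members and 0 of 28 others. Among all genes the shares were 11.0% for the 3686 paired genes and 5.51% for the 10259 others. Over the extended list, 6 of the 20 paired members (30.0%) and 2 of the 28 others (7.14%) were bound, against 21.1% and 9.57% among all genes. The 28 include 14 of the copies, of which 0 were in the extended list. Among constitutive genes alone, the extended list reached 6 of 18 paired genes (33.3%) and 2 of 14 others (14.3%). In the whole pooled list 9 of 18 paired constitutive genes (50.0%) and 8 of 14 others (57.1%) were bound. Among all genes these shares were 53.6% and 39.0%. The groups of 18 and 14 are small, and the differences between them were not tested. Starts of the pairs were 42 bp apart for Rpt5 and RanBP3, 109 bp for Rpn5 and Hat1, and 417 bp for Prosbeta4 and Nubp1.

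Other families of genes that every cell uses were read the same way. In the IDR list the subunit genes had 2 of 48 bound (4.17%) and the constitutive ones 2 of 32 (6.25%), against 14 of 93 cytoplasmic ribosomal protein genes (15.1%, interval 8.48% to 24.0%), 9 of 73 mitochondrial ones (12.3%, interval 5.80% to 22.1%) and 2 of 80 respiratory chain and ATP synthase genes (2.50%, interval 0.304% to 8.74%). Over the extended list the shares were 16.7% of the subunit genes and 25.0% of the 32 constitutive ones, against 29.0% of the cytoplasmic ribosomal, 15.1% of the mitochondrial ribosomal and 11.2% of the respiratory genes. The interval of the subunit genes in the IDR list overlaps those of all 3 families.

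Preset motifs were sought on both strands in the 300 bp from 250 bp before to 50 bp after the start of each gene. TATCGATA, the DRE, was found in 12 of 32 constitutive genes (37.5%) and 0 of 16 copies, against 9.36% of all protein-coding genes. The 12 were Prosalpha3, Prosalpha5, Prosalpha6, Prosbeta1, Prosbeta2, Prosbeta6, Rpn3, Rpn7, Rpn9, Rpn12, Rpn13 and Rpt5. GAGAG, the letters bound by GAGA factor, went the other way, with 3 of 32 constitutive genes (9.38%) and 6 of 16 copies (37.5%), against 29.7% of all genes. CAGCTG was found in 2 of 48 members (4.17%), Rpt3 and its copy Rpt3R, against 17.7% of all genes, and CACGTG in 0, against 4.20% of all genes. The TGACNNNGC site was found in 6 of 48 (12.5%) against 8.63% of all genes, GGTCACAC in 5 (10.4%) against 7.70%, TGTTTAC, a forkhead site, in 6 (12.5%) against 9.19%, AAAAAAAA in 11 (22.9%) against 16.0%, and TATAAA in 18 (37.5%) against 45.8%.

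The DRE with 10 bases to each side is shown for 8 of the 12 genes, from the RefSeq Release 6 sequence and on the strand of the gene, to show its setting at these starts. The 4 not shown, Prosalpha3, Prosalpha5, Prosbeta1 and Rpn13, all had a pooled region, so the printed set is not balanced between genes with and without one. Capitals mark TATCGATA, which reads the same on both strands. Prosalpha6, Prosbeta2 and Rpn3 had a pooled region, and the others shown had none. The printed element lay inside that region for Prosalpha6, and outside it for Prosbeta2 and Rpn3. The Prosbeta2 region did hold another copy of the element, within 100 bp of its summit. The element began 16 bp upstream of the start in Prosalpha6 (chr2L:10221325-10221352), 10 bp in Prosbeta2 (chr3L:14999931-14999958), 44 bp in Prosbeta6 (chr3L:16610445-16610472), 216 bp in Rpn12 (chr3L:16582802-16582829), 197 bp in Rpn3 (chr2L:19051583-19051610) and 46 bp in Rpt5 (chr3R:23752820-23752847). It began 3 bp downstream of the start in Rpn7 (chr3R:22462034-22462061) and 26 bp downstream in Rpn9 (chr3R:23733419-23733446).

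Prosalpha6: ccgaatccctTATCGATAcccgatacac
Prosbeta2: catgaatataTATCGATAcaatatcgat
Rpn3: gttatcggagTATCGATAtcgaaaaggc
Prosbeta6: tatgtataccTATCGATAacgtttaagc
Rpn7: cggtataattTATCGATAattttggggt
Rpn9: cccggttaaaTATCGATAttctcgcgga
Rpn12: tgttaaaataTATCGATAttaaagcaca
Rpt5: tcgctgtcacTATCGATAagcgccggcg

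Genes with and without this element in the 300 bp window were read against the Jim lists. Of the 12 constitutive genes with it, 1 was in the IDR list (8.33%), 4 were reached by the extended list (33.3%) and 7 by the pooled list (58.3%). Of the 20 without it the numbers were 1, 4 (20.0%) and 10 (50.0%). The 1 in the IDR list was Rpt3, whose region does hold the element, 335 bp upstream of its start and so outside the window. Among all protein-coding genes the shares were 8.89%, 17.9% and 51.6% for the 1305 with the element and 6.76%, 12.1% and 41.9% for the 12640 without it.

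At the summits themselves, in windows of 50 bp to each side, the element stood at 1 of the 2 bound members, Prosbeta1. It stood at 1.63% of all IDR summits and 2.51% of the 836 IDR summits within 500 bp of an annotated gene start. The element also stood at 3 of the 18 pooled summits of members, and at 6 with 100 bp to each side. All but 2 of the 18 rank below the IDR list. No share over all pooled summits was taken to set beside the counts among the 18. AAAAAAAA stood at the Rpt3 summit, against 17.4% of all IDR summits. GAGAG stood at 0 of the 2, against 25.5% of IDR summits, and at the Rpn8 and Prosbeta7 summits among the 18. The other 6 motifs stood at 0 of the 2. With 2 summits these are single observations, and a match of letters does not show that a factor bound there.

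Genes that work with the proteasome were taken from a list of 25 that holds no subunit gene of the 48. The IDR list reached 4 of them (16.0%, interval 4.54% to 36.1%), against 6.96% of all genes, the extended list 10 (40.0%) against 12.6%, and the pooled list 18 (72.0%) against 42.8%. The 4 were Ufd1-like, CG8858, Pngl and TER94. Ufd1-like, a partner of the segregase that extracts ubiquitinated proteins, had rank 289 and a signal of 121.2, with its summit 13 bp from its start and ranks of 345 in replicate 1 and 265 in replicate 3. CG8858 had rank 448 and a signal of 103.7, with ranks of 352 in replicate 1 and 710 in replicate 3. Pngl, a peptide N-glycanase that acts on misfolded glycoproteins, had rank 583, with ranks of 4079 in replicate 1 and 231 in replicate 3. TER94, the segregase ATPase itself, had rank 998, with ranks of 1044 in replicate 1 and 1467 in replicate 3. All 4 were the nearest gene to a summit, and their ranks stood above those of both bound subunit genes.

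The polyubiquitin genes Ubi-p63E and Ubi-p5E followed at ranks 1601 and 1686, and Uch-L5, a deubiquitinase of the regulatory particle, at 1537. The gene cnc encodes CncC, an activator of proteasome genes in flies, and had rank 2318, with 2331 in replicate 1 and 1683 in replicate 3. Keap1, which restrains CncC, had rank 2930. The assembly chaperone gene Pomp was at rank 3579. PI31, Ubqn, p47, Npl4, RpL40, rngo and maf-S had no pooled region at a start.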

How the data were processed

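ChIP-seq of GFP-tagged Jim in whole larvae was read from deposited dm6 region lists. Per the labels, library sizes were 175 to 275 bp in replicate 1 and 200 to 325 bp in replicate 3. Per the deposited text notes, a replicate's list was made from its own alignment with a control, the pooled list from both alignments with a control, and the IDR list from the other lists. The sources used here do not name the aligner, the peak caller or the threshold, and depth is unknown. The deposited signal (narrowPeak column 7) ranked regions within a list, and the deposited score in the q-value field, below 0 in 20027 pooled regions, was not used for calls. The lists on dm3 were not used here.

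Summits were compared with transcript starts of Ensembl release 115 (BDGP 6.54). All 91475 regions ended within the arms of the RefSeq Release 6 sequence, and all 48 members had the same place in both annotations. Coordinates count from 1. A gene with more starts has more chances to be called. The calls were checked on simulated data. Named were the bound members, those in the 1476 strongest regions of either replicate, up to 10 of the next by pooled signal, those nearest the 500 bp limit and bound pathway genes. The printed sequences were chosen after values were seen, except Rpt3, whose window was moved from the 101 bases at the summit to bases outside exons. For the 2 bound members no sequence other than that of Rpt3 is printed. Pathway, ribosomal and respiratory lists were set by hand or by symbol. The members and lists were chosen with earlier results of these data known. Scripts ran in Python 3.11.15 (pandas 2.3.3, numpy 2.4.6), with intervals from scipy 1.17.1 and plots from matplotlib 3.10.9.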

Additional observations from a re-analysis of the deposited data

How the results depend on the processing

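The 2 bound members became 1 with a limit of 250 bp, 0 with 0.5 of the IDR list, 8 with the extended list and 0 when a summit counted only for its nearest gene. The constitutive genes gave the same 1, 0, 8 and 0, and the copies stayed at 0 in all 9 alternatives. Each replicate alone gave 3 members (range 3 to 3 over both), with 0 shared between them. A limit of 1000 bp, 1 TSS per gene and any overlap with the region left 2. The 18 members bound at any pooled rank became 11 by nearest gene only and 12 with a limit of 250 bp. The 0 members found in both replicates became 2 with 2 times as many regions of each. Bound members that were the nearest gene, 0 in the IDR list, became 2 of 8 with the extended list and 1 with either replicate alone, Rpn3 in replicate 1 and Rpn6 in replicate 3. Summits of bound members with TATCGATA, 1 within 50 bp, became 2 within 100 bp. The cause of these moves was not tested. No paired analysis was possible because the 2 samples form 1 group and no test was run. Depth is unknown, so a gene without a region cannot be called free of Jim.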

Other observations

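The number of annotated starts moves with the calls. Among genes with 1 TSS, 1 of 36 members was in the IDR list against 4.65% of all such genes, and 9 of 36 had a pooled region against 35.0%. All 9 were constitutive genes, of which 22 have 1 TSS. The other 14 members with 1 TSS are copies. Among genes with 2 TSSs, 1 of 11 members was in the IDR list against 10.7%, and 8 of 11 had a pooled region against 58.0%. Rpn13 alone among the members has 3 TSSs. Of 37 head-to-head cytoplasmic ribosomal protein genes, 8 (21.6%) were in the IDR list, and of 56 others 6 (10.7%). In the whole pooled list the shares of these genes were 70.3% and 69.6%. The differences were not tested.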
